A study of Mus musculus with 4 samples.

Results

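The matrix proteases and their inhibitors were taken as every gene whose symbol begins with Mmp, Adam, Adamts, Adamtsl or Timp followed by a digit. They are 70 of the 18373 genes in the deposited table, with 22 Mmp, 20 Adam, 19 Adamts, 5 Adamtsl and 4 Timp genes. They were measured by RNA-seq in primary liver sinusoidal endothelial cells (LSECs) from 8-week-old Balb/c mice, at day 3. The cells were cultured for 24 h, plated on collagen and transfected for 48 h with a control siRNA (NC, 2 libraries) or with siRNA against the long noncoding RNA Airn (siAirn, 2 libraries). The comparison asks how the mRNA levels of these genes differ when LSECs receive siAirn. The protocol speaks of separate siAirn sequences, while the titles give both siAirn libraries the name siAirn1. The titles label the 2 libraries of each group as biological replicates, but the sources do not say whether the cultures came from separate animals. The p-values therefore measure the spread between these 4 libraries, which may be technical.

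Matrix metalloproteinases (MMPs) are zinc enzymes that cut collagens, proteoglycans and other matrix proteins, and most are secreted as inactive proenzymes. ADAMs are membrane-anchored relatives, several of which release the outer part of cell surface proteins in a step called shedding. ADAMTS enzymes are secreted relatives that bind the matrix and cut proteoglycans, procollagens or von Willebrand factor, while ADAMTS-like proteins lack the protease domain. TIMPs are the tissue inhibitors of these enzymes. In the liver, LSECs line the sinusoids over a sparse matrix in the space of Disse, and matrix turnover there is known to change in fibrosis.

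The deposited estimated counts summed to between 17308382 and 18371959 per library. The target itself was low, with Airn at 7 and 3 counts in the NC libraries and at 11 and 9 counts in the libraries labelled siAirn, too few to check the labels and not in the direction of a knockdown. Every direction below is between libraries as labelled. LSEC markers were abundant, for example Oit3 at 872 and 902 CPM (counts scaled to library size) in NC and 608 and 555 CPM in siAirn, and Kdr at 630, 552, 647 and 552 CPM in the same order. Of 14 LSEC markers, 11 fell in siAirn and 0 rose, and of 13 pan-endothelial markers 9 fell and 0 rose, where 8.56% of all genes tested fell and 8.27% rose. Markers of other liver cells were also detected, although the study's methods select LSECs with CD146 beads. The summed CPM of the Kupffer cell and macrophage list was 286 and 358 in NC and 225 and 187 in siAirn, and 8 of its 15 tested genes fell and 0 rose. The stellate cell and fibroblast list summed to 2022 and 2422 CPM in NC and 2309 and 2918 CPM in siAirn, and 4 of its 16 genes rose and 0 fell. In such bulk libraries, fewer cells of a type and less RNA per cell cannot be told apart.

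Promoters that share a word are shown first, for the 5 of their genes that are among the 10 highest of the 70 by FPKM. RefSeq promoter sequences (GRCm38.p6) were found for 44 of the 70 genes. The AP-1 word TGAGTCA or TGACTCA, searched on both strands in the 250 bases before the start site, was found in 8 of these 44 genes (Adam19, Mmp10, Mmp12, Mmp13, Mmp1a, Mmp1b, Mmp3 and Mmp7), against 5.16% of all 27025 genes with a promoter in the table (4.46% of 32851 promoters of the same length, since some genes have several). Mmp1a, Mmp1b and Mmp7 had mean levels of 0.060, 0.505 and 1.27 FPKM and are not shown, while Timp3, Mmp14 and Timp1, also among the 10 highest, had no such word in the promoters searched. The deposited FPKM of Mmp7 is low for its 164 to 215 estimated counts per library and its 1068 exonic bases in GENCODE M21. The length that the authors used is not given. Of the 8 genes, 7 are Mmp genes on chromosome 9, with windows between positions 7272364 and 7692089. The sequences below are the 150 bases before the start site, 5′ to 3′, and the capitals mark the AP-1 word. All 5 lie on the plus strand.

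Mmp13, chr9:7272364-7272513: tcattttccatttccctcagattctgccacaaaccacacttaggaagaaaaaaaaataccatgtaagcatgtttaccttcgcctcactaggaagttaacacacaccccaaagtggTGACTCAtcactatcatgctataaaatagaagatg
Mmp12, chr9:7347224-7347373: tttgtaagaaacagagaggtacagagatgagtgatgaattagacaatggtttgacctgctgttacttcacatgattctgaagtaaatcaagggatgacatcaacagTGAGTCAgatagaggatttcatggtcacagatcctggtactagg
Mmp3, chr9:7445672-7445821: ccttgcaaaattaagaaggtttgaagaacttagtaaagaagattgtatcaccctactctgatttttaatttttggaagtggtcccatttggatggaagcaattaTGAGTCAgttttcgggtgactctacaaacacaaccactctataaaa
Mmp10, chr9:7502192-7502341: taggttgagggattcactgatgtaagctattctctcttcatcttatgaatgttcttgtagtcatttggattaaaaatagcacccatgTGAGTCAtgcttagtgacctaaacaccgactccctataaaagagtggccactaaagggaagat
Adam19, chr11:46055834-46055983: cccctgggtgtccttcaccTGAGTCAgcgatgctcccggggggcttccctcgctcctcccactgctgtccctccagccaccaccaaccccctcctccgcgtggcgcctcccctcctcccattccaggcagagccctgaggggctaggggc

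The first base of the word lies 35 bases before the start site in Mmp13, 44 in Mmp12, 46 in Mmp3, 63 in Mmp10 and 131 in Adam19. The word TATAAA, searched on both strands in the same 250 bases, was found in 9 of the 44 genes, among them Mmp3, Mmp10 and Mmp13, and in 14.3% of all genes. By contrast, the SP1 word GGGCGG, on both strands, was found in 24 of the 44 genes, among them Mmp14, Adam10, Adam15, Adam17, Adamts1, Adamts9, Timp1, Timp2 and Timp3, and in 35.4% of all genes. None of these words contains another. In Mmp12 and Adam19 the word lies before an alternative start site, of the 2 and 3 that RefSeq gives. Such matches describe sequence and show no binding.

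The level of these genes was compared per length, as deposited FPKM (reads scaled by transcript length and library size). Stromelysins and a collagenase led the order. Which cells of these bulk libraries made each mRNA was not tested. Mmp10 (stromelysin 2) was at 280 and 305 FPKM in NC and 342 and 380 FPKM in siAirn. Mmp13, the main interstitial collagenase of mice, followed at 157 and 216 FPKM in NC and 186 and 284 FPKM in siAirn, and it lay below Mmp10 in each of the 4 libraries. Timp3, an inhibitor that binds the matrix, was at 97.8 and 93.0 FPKM in NC and 110 and 120 FPKM in siAirn. Mmp14 was above Timp3 in both NC libraries, at 102 and 96.1 FPKM, and below it in both siAirn libraries, at 69.1 and 72.2 FPKM, so their order differs between the groups.

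Over all 4 libraries, Mmp14, Adam9, Mmp3 and Timp1 had means of 84.9, 82.2, 76.7 and 59.7 FPKM. Timp1 lay below the other 3 in each of the 4 libraries, and the order of those 3 differed between libraries. Mmp12, Adam19, Adamts7, Adamts1, Adam15, Adam10 and Adamts9 followed with means from 44.0 down to 21.7 FPKM, and each overlapped its neighbour in this order. Timp2 (17.3 FPKM) and Adam17 (15.4 FPKM) closed the group above 10 FPKM. In all, 16 genes had a mean over 10 FPKM, 14 between 1 and 10 FPKM, and 40 at most 1 FPKM. Mmp2, Mmp9 and Adamts13, the last a protease that cuts von Willebrand factor, had means of 5.69, 0.958 and 0.288 FPKM.

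Mmp3, Mmp10 and Mmp13 together made up 44.2% and 47.6% of the summed FPKM of all 70 genes in NC, and 48.9% and 52.5% in siAirn. The whole Mmp family summed to 648 and 794 FPKM in NC and 705 and 886 FPKM in siAirn, so the groups overlapped. The Timp family summed to 164 and 177 FPKM in NC and to 179 and 209 FPKM in siAirn, which did not overlap but lay close.

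**Figure D1:**
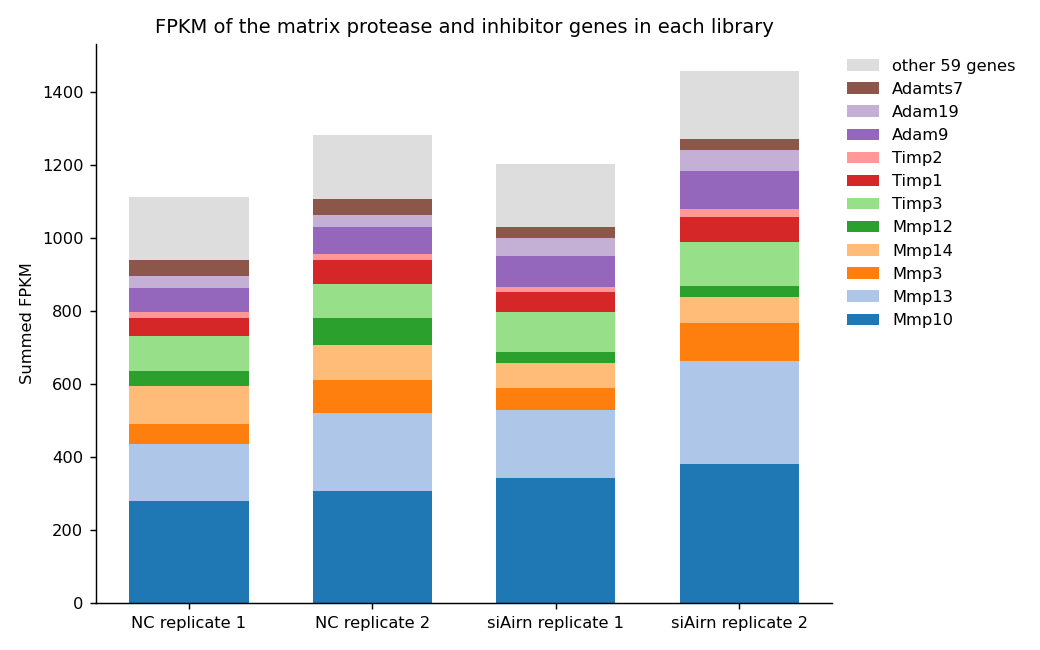
Summed FPKM of the 70 genes in each of the 4 libraries, with the 11 named genes as coloured parts of each bar and the other 59 genes in grey. Mmp10, Mmp13 and Mmp3 fill 44.2% to 52.5% of each bar, and both replicate 2 bars are taller than both replicate 1 bars.

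Of the 70 genes, 45 passed the filter on low counts and were tested (17 Mmp, 11 Adam, 12 Adamts, 2 Adamtsl and 3 Timp). The other 25 had at most 18 counts in any library. They include Mmp8, the neutrophil collagenase (4, 7, 10 and 7 counts), and Timp4 (1, 0, 0 and 0 counts). By edgeR's quasi-likelihood test, 14 of the 45 (31.1%) had an adjusted p under 0.05, against 16.8% of all 13628 genes tested. In siAirn 8 of the 14 were higher, against a background of 8.27%, and 6 were lower, against 8.56%. By the threshold of the study's methods, a fold change over 1.4 with an unadjusted p under 0.05, 11 of the 45 (24.4%) passed, against 9.96% of all genes. Of these 11, 5 were higher (background 5.25%) and 6 lower (background 4.72%).

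The values of the groups did not overlap for 28 of the 45, against 62.7% of all genes tested, a share near the background. The calls lay mainly among the abundant genes. Of the 16 genes with a mean over 10 FPKM 9 were called (56.2%), against 22.9% of all genes above that level, and of the 29 other tested genes 5 were called (17.2%), against 10.7% of all genes at or below it. The median log2 fold change over the 45 was 0.11 and the median of its absolute size 0.40, against 0.00 and 0.20 over all genes tested. The first of these rests on single libraries, since it was -0.0056 without siAirn replicate 2, 0.015 without NC replicate 1, 0.20 without NC replicate 2 and 0.30 without siAirn replicate 1. By family, 3 of 17 Mmp genes (17.6%, a share near the 16.8% over all genes), 6 of 11 Adam genes (54.5%), 5 of 12 Adamts genes (41.7%), 0 of 2 Adamtsl genes and 0 of 3 Timp genes were called by edgeR's quasi-likelihood test. At an unadjusted p under 0.05 these counts were 6, 6, 8, 0 and 1, against 34% of all genes tested, and DESeq2, which called 13.2% of all genes, called 1 Timp gene and 0 Adamtsl genes. Without NC replicate 1, 1 of the 45 was called (Mmp12), and 35 of all 13628 genes (0.257%). Without NC replicate 2 the same test called 0 genes, with 18 of the 45 and 3075 of all genes at an unadjusted p under 0.05. The loss thus ran over all genes, and the direction of each of the 14 held without any single library. Adam10, for example, had a log2 fold change between -0.56 and -0.44 and Adamts7 between -0.51 and -0.49 when 1 library was left out. On the log2 scale Mmp12 (-1.25 to -0.45), Adamts12 (1.14 to 1.61), Adam9 (0.27 to 0.61), Adamts1 (0.33 to 0.70) and Adamts9 (0.20 to 0.46) spread more widely.

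**Figure D2:**
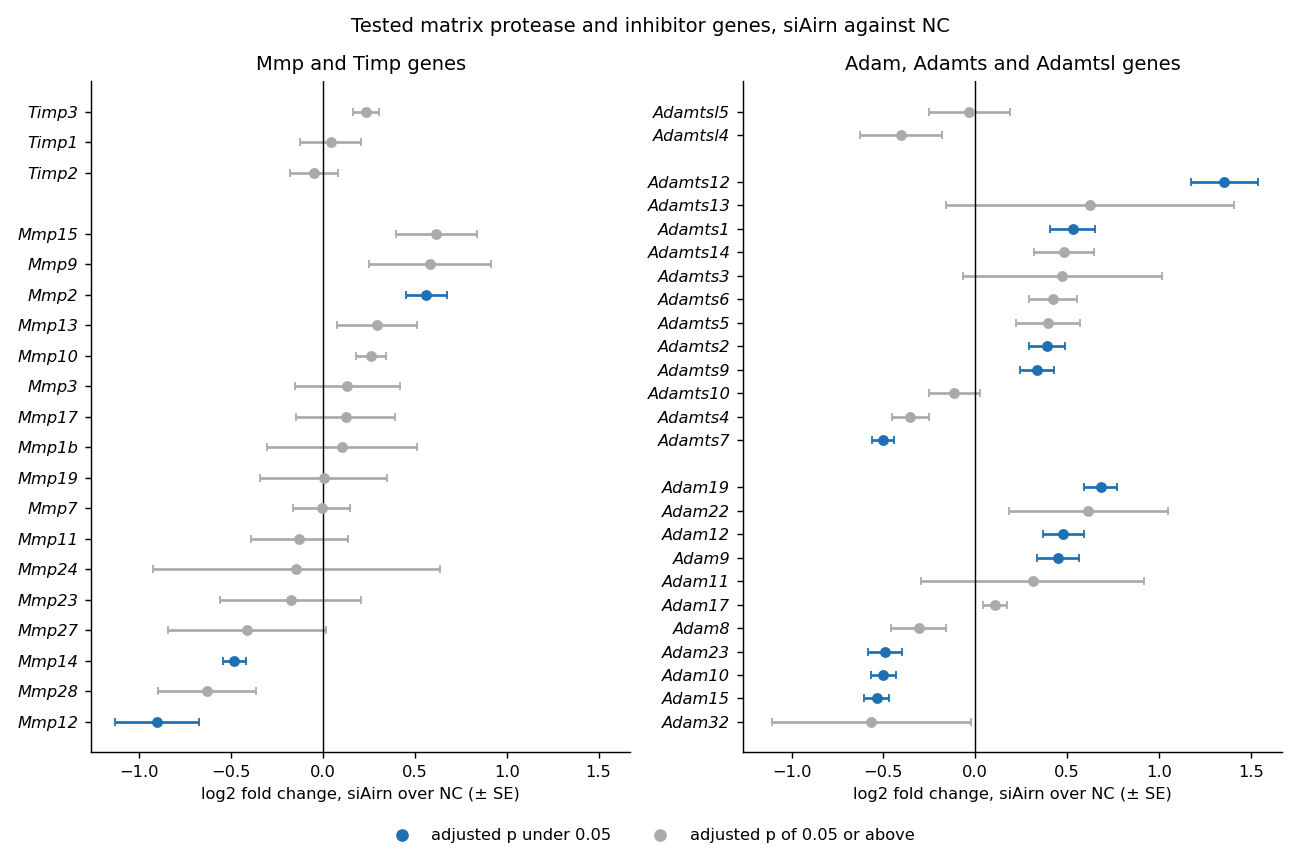
Log2 fold change of siAirn over NC, with its standard error, for each of the 45 tested genes, in blue for an adjusted p under 0.05 by the quasi-likelihood test of edgeR and in grey otherwise. The called genes run from Mmp12 at -0.90 to Adamts12 at 1.36, and none of the 3 Timp genes is blue.

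Among the secreted and membrane MMPs, the gelatinase Mmp2 rose, and the membrane-type MMP Mmp14 and the macrophage elastase Mmp12 fell, a number of calls near the background. Mmp2, which cuts basement membrane collagen and denatured collagen, was at 13.7 and 13.4 CPM in NC and 21.4 and 18.7 CPM in siAirn. Both siAirn libraries were above both NC libraries, at 1.48-fold (log2 fold change 0.56, SE 0.11, adjusted p = 0.0216, edgeR's quasi-likelihood test). Mmp14, which activates the Mmp2 proenzyme and cuts collagen at the cell surface, was at 348 and 329 CPM in NC and 237 and 247 CPM in siAirn. It fell in both siAirn libraries, with a log2 fold change of -0.48 (SE 0.06, adjusted p = 0.0081). The groups of Mmp14 were separated by more than either group's spread.

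Mmp12 was at 73.9 and 129 CPM in NC and 52.9 and 55.5 CPM in siAirn. The siAirn libraries were close to each other and below both NC libraries, while the NC libraries differed 1.74-fold. The log2 fold change was -0.90 (SE 0.23, adjusted p = 0.0390), it was -0.45 without NC replicate 2, and DESeq2 did not call it (adjusted p = 0.0997). Kupffer cell and macrophage markers moved the same way. The most abundant of them, Lyz2, was at 119 and 131 CPM in NC and 93.8 and 75.0 CPM in siAirn (adjusted p = 0.0203), and Cd68 at 38.9 and 53.2 CPM in NC and 27.9 and 28.9 CPM in siAirn (adjusted p = 0.0234). Of the list, 2 of 16 markers averaged under 1 CPM, among them Timd4 at 2, 0, 3 and 0 counts. The part of these cells in the Mmp12 result was not tested.

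Of the 7 genes with an AP-1 word on chromosome 9, edgeR's quasi-likelihood test called Mmp12 alone, near the 16.8% over all genes. Mmp1a was not tested (2, 1, 5 and 0 counts). DESeq2, which called 13.2% of all genes, called Mmp10 and not Mmp12. Mmp10 was at 457 and 501 CPM in NC and 540 and 608 CPM in siAirn. Both siAirn libraries were higher, but the log2 fold change of 0.26 (SE 0.08) had an adjusted p of 0.0681 by edgeR's quasi-likelihood test, and of 0.0319 by DESeq2. Mmp13 was at 405 and 561 CPM in NC and 466 and 720 CPM in siAirn, which overlapped (log2 fold change 0.29, SE 0.22, adjusted p = 0.383). With the replicate block, whose numbers are not stated to mark a shared animal or batch, it was called (log2 fold change 0.28, adjusted p = 0.002).

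Mmp3 (stromelysin 1), which activates other MMP proenzymes, was at 93.1 and 153 CPM in NC and 99.4 and 170 CPM in siAirn. The libraries of each group differed more than the groups did: replicate 2 was 1.64-fold above replicate 1 in NC and 1.72-fold in siAirn, against 1.10-fold between the groups (adjusted p = 0.782). Mmp10 and Mmp3 hold 8.37% and 8.39% of their 50-base windows in another gene, mainly each other, so a small part of their reads cannot be assigned with certainty. Mmp7, the matrilysin, was at 9.57 and 11.9 CPM in NC and 11.5 and 9.89 CPM in siAirn, which overlapped. Mmp9, the other gelatinase, was low, at 2.80 and 1.88 CPM in NC and 2.71 and 4.30 CPM in siAirn. Its groups overlapped, and the log2 fold change of 0.58 had an SE of 0.33 (adjusted p = 0.263). That value was 0.21 without siAirn replicate 2, 0.32 without NC replicate 2, 0.89 without NC replicate 1 and 0.88 without siAirn replicate 1.

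A further pair of Mmp genes passed the threshold of the methods but was not called by edgeR's quasi-likelihood test with no covariate. In all, 4 of the 17 tested Mmp genes (23.5%) passed that threshold, against 9.96% of all genes tested. Mmp15, a membrane-type MMP, was at 3.03 and 2.65 CPM in NC and 4.65 and 4.07 CPM in siAirn (log2 fold change 0.62, SE 0.22, adjusted p = 0.0995). Mmp28 was at 3.74 and 2.87 CPM in NC and 2.10 and 2.15 CPM in siAirn (log2 fold change -0.63, SE 0.27, adjusted p = 0.145). Their groups did not overlap, but their counts were low, from 38 to 84 per library. The remaining 7 tested Mmp genes were Mmp11, Mmp17, Mmp19, Mmp1b, Mmp23, Mmp24 and Mmp27. They had from 3.52 to 107 estimated counts per library and log2 fold changes from -0.42 for Mmp27 to 0.12 for Mmp17. Every called gene and every gene past the threshold of the methods had already been named. The absence of calls among these 7 therefore follows from that choice and is no separate result. DESeq2 gave an adjusted p only for Mmp11 among them (0.874).

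Of the inhibitors, none of the 3 tested Timp genes was called by edgeR's quasi-likelihood test, and 1, Timp3, had an unadjusted p under 0.05. Timp1, a soluble inhibitor of most MMPs, was at 38.6 and 51.4 CPM in NC and 40.2 and 52.6 CPM in siAirn. The groups overlapped and the log2 fold change was 0.04 (SE 0.17, adjusted p = 0.887). Timp2, which also takes part in the activation of the Mmp2 proenzyme by Mmp14, was at 58.2 and 64.9 CPM in NC and 51.4 and 67.6 CPM in siAirn, a log2 fold change of -0.05 (SE 0.13, adjusted p = 0.822).

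Timp3, which inhibits Adam17 and several ADAMTS enzymes as well as MMPs, was at 451 and 431 CPM in NC and 492 and 543 CPM in siAirn. Its groups did not overlap, but the log2 fold change of 0.23 (SE 0.07) had an adjusted p of 0.0663 by edgeR's quasi-likelihood test and of 0.0423 by DESeq2. Its exons overlap those of Syn3 on the opposite strand over 21.3% of their length, and the use of strand in counting is not given in the sources used here. A missed threshold does not show that these inhibitors were equal in the groups.

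**Figure D3:**
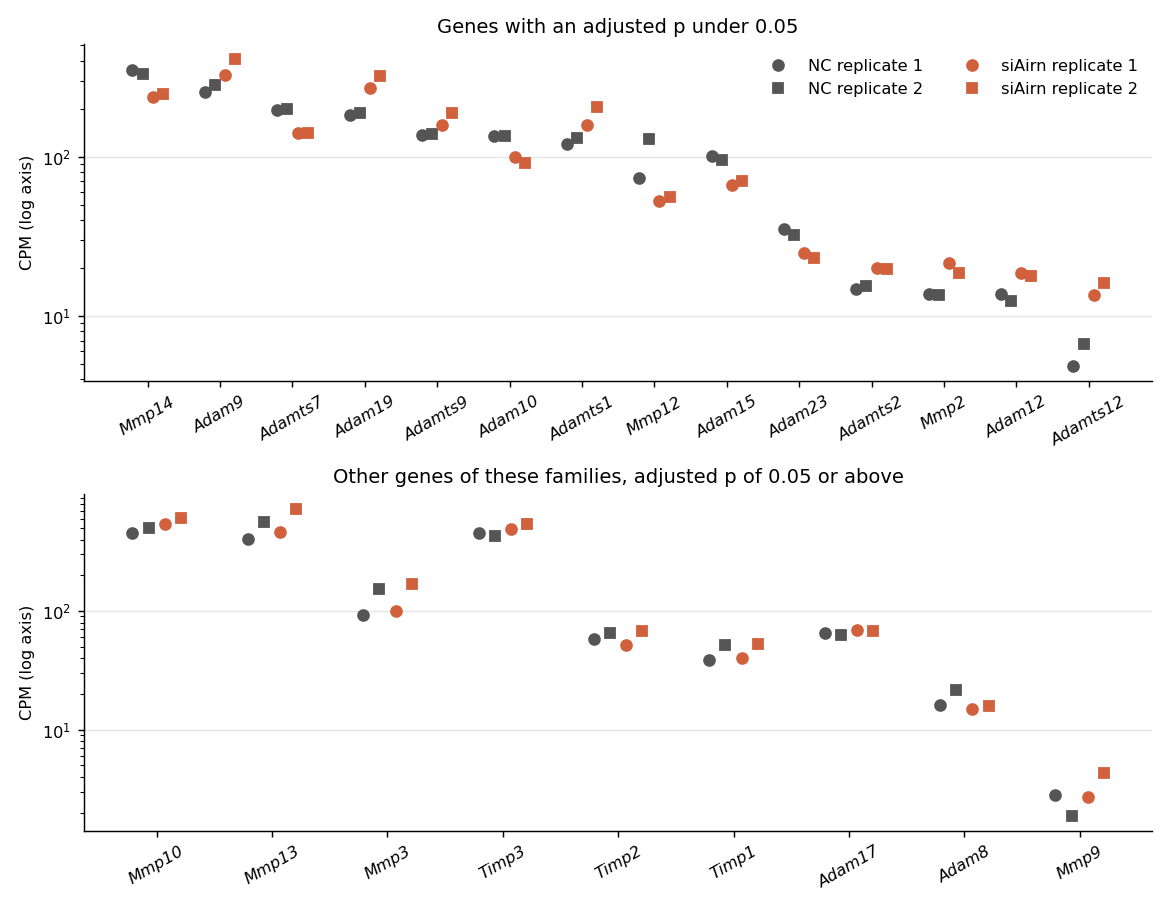
CPM on a log axis in each of the 4 libraries, NC in grey and siAirn in orange, with circles for replicate 1 and squares for replicate 2, for the 14 called genes (top) and 9 other genes (bottom). The groups are apart for every called gene, whereas for Mmp13, Mmp3, Timp1 and Timp2 the squares of both groups lie above the circles of both groups.

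Among the Adam genes, most of which encode sheddases or their inactive relatives, Adam10, Adam15 and Adam23 fell while Adam9, Adam12 and Adam19 rose. Adam10, which sheds Notch receptors and VE-cadherin among many proteins, was at 134 and 135 CPM in NC and 99.2 and 91.1 CPM in siAirn. The NC libraries nearly coincided and both siAirn libraries were lower, at a log2 fold change of -0.50 (SE 0.07, adjusted p = 0.0085, edgeR's quasi-likelihood test). Adam17, the sheddase of TNF and of EGF receptor ligands, was at 64.8 and 63.3 CPM in NC and 69.8 and 68.3 CPM in siAirn. Its groups did not overlap, but the log2 fold change was 0.11 (SE 0.06, adjusted p = 0.277).

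Adam15, which carries an integrin-binding sequence and is made by endothelial cells, was at 102 and 95.9 CPM in NC and 66.0 and 70.1 CPM in siAirn. It fell by 0.54 on the log2 scale (SE 0.07, adjusted p = 0.0079). Of its exonic bases, 20.6% lie under exons of 4731419I09Rik on the opposite strand. Adam23, which lacks protease activity and binds integrins, was at 35.1 and 32.2 CPM in NC and 24.7 and 23.1 CPM in siAirn, with no overlap (log2 fold change -0.49, SE 0.09, adjusted p = 0.0176 by edgeR's quasi-likelihood test, and 0.0536 and 0.0538 by limma at the pseudocounts of 1 and 0.1 FPKM). Beside these decreases, the most abundant pan-endothelial markers were lower as well. Eng was at 2750 and 3025 CPM in NC and 1809 and 1821 CPM in siAirn, and Cdh5 (VE-cadherin) at 2625 and 2322 CPM in NC and 1794 and 1524 CPM in siAirn. Whether endothelial RNA as a whole had a part in the lower Mmp14, Adam10, Adam15 and Adam23 was not tested.

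Adam19 rose the most among the called Adam genes. It was at 182 and 187 CPM in NC and 272 and 320 CPM in siAirn, 1.60-fold higher (log2 fold change 0.68, SE 0.09, adjusted p = 0.0079). Adam9, the most abundant Adam gene by FPKM, was at 253 and 282 CPM in NC and 324 and 408 CPM in siAirn, with no overlap (log2 fold change 0.45, SE 0.12, adjusted p = 0.0399). Adam12, known from activated stellate cells and other mesenchymal cells, was at 13.8 and 12.4 CPM in NC and 18.6 and 17.8 CPM in siAirn (log2 fold change 0.48, SE 0.11, adjusted p = 0.0299). These 3 genes were higher in both siAirn libraries than in either NC library. Exons on the opposite strand cover 10.1% of Adam19. Corrected for GC content and length, Adam9 had a log2 fold change of 0.39 (adjusted p = 0.0890) and Adam12 of 0.31 (adjusted p = 0.107), in a setting that called 7.85% of all genes against 16.8% without the correction. With DESeq2 Adam12 had an adjusted p of 0.0778.

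Adam8, known from leukocytes, was at 16.2 and 21.6 CPM in NC and 14.8 and 15.7 CPM in siAirn. The groups did not overlap, but the log2 fold change of -0.31 (SE 0.15) was not called (adjusted p = 0.195). The other 3 tested Adam genes, Adam11, Adam22 and Adam32, had from 5 to 53 counts per library and standard errors from 0.43 to 0.61, so that changes of moderate size were not detectable at this depth.

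In the Adamts family, 4 genes rose and 1 fell, and the closely related Adamts7 and Adamts12 went in opposite directions. Adamts12 was at 4.84 and 6.69 CPM in NC and 13.6 and 16.0 CPM in siAirn, and counts rose from 83 and 121 to 246 and 283. It was 2.56-fold higher (log2 fold change 1.36, SE 0.18, adjusted p = 0.0085, edgeR's quasi-likelihood test), the largest change of the 45. Adamts7 was at 198 and 200 CPM in NC and 141 and 140 CPM in siAirn. It fell by 0.50 on the log2 scale (SE 0.06, adjusted p = 0.0067), and the libraries within each group were nearly equal. Both enzymes are known to cut the matrix protein COMP, whose gene Comp was at or under 0.467 CPM in every library.

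Adamts1, Adamts4, Adamts5 and Adamts9 cut versican and related proteoglycans. Adamts1 was at 120 and 130 CPM in NC and 158 and 204 CPM in siAirn, and it rose 1.44-fold (log2 fold change 0.53, SE 0.12, adjusted p = 0.0291). Adamts9 was at 136 and 139 CPM in NC and 158 and 189 CPM in siAirn, which did not overlap (log2 fold change 0.34, SE 0.09, adjusted p = 0.0489), and 12% of its exonic bases lie under exons of the opposite strand. Corrected for GC content and length, both calls were lost, with a log2 fold change of 0.47 (adjusted p = 0.0642) for Adamts1 and of 0.15 (adjusted p = 0.299) for Adamts9. Adamts4 was at 22.1 and 22.3 CPM in NC and 16.4 and 18.4 CPM in siAirn, lower in both siAirn libraries (log2 fold change -0.35, SE 0.10). It was not called by edgeR's quasi-likelihood test (adjusted p = 0.0584) or DESeq2 (adjusted p = 0.187). The likelihood-ratio test of edgeR (adjusted p = 0.0314) and the replicate block (adjusted p = 0.0133) did call it. Adamts5 was at 18.7 and 25.0 CPM in NC and 25.0 and 32.7 CPM in siAirn, with groups that overlapped narrowly (log2 fold change 0.40, SE 0.17, adjusted p = 0.160). Its log2 fold change was 0.085 once GC content and length were corrected for, 0.19 without siAirn replicate 2, 0.20 without NC replicate 1 and 0.62 without NC replicate 2. Across these 4 proteoglycanases the values thus ran in both directions.

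Adamts2, Adamts3 and Adamts14 remove the aminopropeptide of fibrillar procollagens. Adamts2 was at 14.8 and 15.5 CPM in NC and 19.9 and 19.7 CPM in siAirn. It rose by 0.39 on the log2 scale (SE 0.10, adjusted p = 0.0387), but it was not called with DESeq2 (adjusted p = 0.139) or once GC content and length were corrected for (log2 fold change 0.30, adjusted p = 0.104). Adamts14 was at 17.9 and 17.6 CPM in NC and 20.6 and 29.1 CPM in siAirn, with siAirn replicate 2 standing above the other libraries (log2 fold change 0.48, SE 0.16, adjusted p = 0.0862). Adamts3 had 5 to 12 counts per library. Of the remaining tested genes, Adamts6 was at 8.23 and 7.79 CPM in NC and 11.1 and 10.4 CPM in siAirn, with no overlap (log2 fold change 0.42, SE 0.13, adjusted p = 0.0693), and Adamts10 had a log2 fold change of -0.11 (SE 0.14). Adamts13 had 2 and 25 counts in NC and 19 and 23 counts in siAirn, so the NC libraries differed from each other by more than the groups did (log2 fold change 0.62, SE 0.78, adjusted p = 0.613). Its substrate gene Vwf was also low, at 7.12 and 2.54 CPM in NC and 5.14 and 1.87 CPM in siAirn.

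Stellate cell and fibroblast markers are given beside Mmp2, Adam12, Adamts2 and Adamts12, which such cells also express. These 4 genes are all among the 8 called higher, so the choice could not show a fall. Genes that fell or were not called were not set beside these markers, such as Mmp14 (log2 fold change -0.48), Timp1 (0.04) and Timp2 (-0.05). Tagln was at 591 and 753 CPM in NC and 624 and 798 CPM in siAirn, and Dcn at 257 and 377 CPM in NC and 313 and 473 CPM in siAirn. These most abundant markers overlapped between the groups. The 4 that rose, named after their values were seen, were Reln (log2 fold change 0.98, adjusted p = 0.0095), Col3a1 (0.76, adjusted p = 0.0051), Lum (0.43, adjusted p = 0.0379) and Acta2 (0.33, adjusted p = 0.0256), and the list's median was 0.35 (0.15 without siAirn replicate 2). The part of these cells in the 4 results was not tested. Of hepatocyte markers 2 of 12 rose (background 8.27%) and 0 fell. Their median log2 fold change was 0.40 with 11 of the 12 above 0, but it was 0.15 with 8 above 0 without siAirn replicate 2, 0.21 with 7 above 0 without NC replicate 1, and 0.72 and 0.68 without NC replicate 2 and siAirn replicate 1. The 2 were Apoa1 (log2 fold change 1.19, adjusted p = 0.0432) and Apob (0.70, adjusted p = 0.0128), named after their values were seen. Apoa1 had an adjusted p of 0.0511 by limma on log2(FPKM + 1), and Apob had a log2 fold change of 0.36 (adjusted p = 0.105) after correcting for GC content and length. The most abundant of these markers were not called by edgeR's quasi-likelihood test, with Alb at 497 and 638 CPM in NC and 705 and 900 CPM in siAirn (adjusted p = 0.0598) and Trf at 89.5, 102, 109 and 148 CPM in the same order (adjusted p = 0.0862). DESeq2 called Trf (adjusted p = 0.0292) but not Alb (adjusted p = 0.153). The likelihood-ratio test of edgeR called both, with an adjusted p of 0.0106 for Alb and of 0.0298 for Trf. Of the tested lymphocyte (3), neutrophil and monocyte (4) and cholangiocyte (5) markers edgeR's quasi-likelihood test called 0, with 1, 0 and 1 at an unadjusted p under 0.05. DESeq2 called 0 but gave no adjusted p for 2, 3 and 3 of them. Cd3e was called by limma at both pseudocounts and by edgeR's likelihood-ratio test (adjusted p = 0.0282), and Krt19 by the quasi-likelihood test after correcting for GC content and length (adjusted p = 0.0291). Mpo and Camp were at 0 in all libraries. The most abundant of these 3 lists averaged low, with Ptprc between 3.22 and 3.98 CPM, Ly6c2 between 2.83 and 5.48 CPM and Krt19 between 14.9 and 20.2 CPM.

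The ADAMTS-like genes were low. Adamtsl4, which takes part in microfibril assembly, was at 3.79 and 3.98 CPM in NC and 2.71 and 3.17 CPM in siAirn, with no overlap but no call (log2 fold change -0.40, SE 0.22, adjusted p = 0.249). Adamtsl5 overlapped between the groups (log2 fold change -0.03, SE 0.22). Its sign was not stable, from -0.23 without siAirn replicate 2 to 0.18 without NC replicate 2, and 0.061 after correcting for GC content and length.

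Genes that control or serve these proteases were taken from 4 lists. Of 28 tested activators and inhibitors of matrix proteases, 3 rose and 3 fell (21.4%, near the 16.8% over all genes). A2m, a plasma inhibitor that traps proteases, was at 8.17 and 9.62 CPM in NC and 3.21 and 3.05 CPM in siAirn (log2 fold change -1.51, SE 0.18, adjusted p = 0.0068). Bsg (EMMPRIN), a surface protein known to induce MMPs in neighbouring cells, was at 477 and 511 CPM in NC and 248 and 256 CPM in siAirn. It fell by 0.97 on the log2 scale (SE 0.06, adjusted p = 0.0028), with both siAirn libraries near each other. The tetraspanin Cd151 fell by 0.22 on the log2 scale (adjusted p = 0.0462). Thbs1 (log2 fold change 0.66, adjusted p = 0.0234), Itgav (0.60, adjusted p = 0.0168) and the clearance receptor Lrp1 (0.54, adjusted p = 0.0277) rose. Without siAirn replicate 2 their log2 fold changes were 0.42, 0.44 and 0.34 in that order. After correcting for GC content and length only A2m and Bsg of the 6 were called. The corrected log2 fold change was 0.55 for Thbs1, 0.36 for Itgav, 0.39 for Lrp1 and -0.045 for Cd151.

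Of 13 tested partners of ADAM10 and ADAM17, 3 fell and 0 rose (23.1% called, against 16.8% of all genes, of which 8.56% were lower). The 3 are tetraspanins that guide ADAM10 to the cell surface and to its substrates. Tspan14, the most abundant of them, was at 285 and 269 CPM in NC and 221 and 187 CPM in siAirn (log2 fold change -0.44, SE 0.09, adjusted p = 0.0225). Tspan15 (log2 fold change -0.49, adjusted p = 0.0320) and Tspan17 (-0.50, adjusted p = 0.0432) were lower too, but Tspan17 was not called by DESeq2 (adjusted p = 0.115). After correcting for GC content and length, edgeR's quasi-likelihood test gave an adjusted p of 0.0586 for Tspan14 (log2 fold change -0.36), 0.0552 for Tspan15 (-0.45) and 0.220 for Tspan17 (-0.27).

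Of 32 tested substrates that ADAM10 and ADAM17 shed, 7 rose and 6 fell (40.6%, against 16.8% of all genes). Cd44 (log2 fold change 0.73, adjusted p = 0.0116), Notch2 (0.68, adjusted p = 0.0315) and Cdh2, N-cadherin (0.66, adjusted p = 0.0252), rose. Cdh5 (-0.58, adjusted p = 0.0134), the endothelial receptor Tie1 (-0.58, adjusted p = 0.0168) and the protein C receptor Procr (-0.55, adjusted p = 0.0187) fell. Cdh5 and Tie1 are in the pan-endothelial list too, where 9 of 13 markers fell and 0 rose, and the substrate Kdr is in the LSEC list. The part of endothelial RNA as a whole in these decreases was not tested. After correcting for GC content and length, 8 of the 32 were called, in a setting that called 7.85% of all genes. Notch2 (corrected log2 fold change 0.52), Cdh2 (0.60) and Procr (-0.41) were not among them.

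Of 22 tested matrix substrates of MMP and ADAMTS enzymes, 8 rose and 1 fell (40.9%, against 16.8% of all genes), with a median log2 fold change of 0.30 (0.13 without siAirn replicate 2 and 0.49 without siAirn replicate 1). Vcan (versican), the substrate of the proteoglycanases above, was at 7.18 and 6.96 CPM in NC and 14.2 and 16.1 CPM in siAirn (log2 fold change 1.10, SE 0.13, adjusted p = 0.0068). Its groups were far apart relative to their spread. Ltbp1 (0.84, adjusted p = 0.0291), Fbn1 (0.77, adjusted p = 0.0125), Col3a1 (0.76, adjusted p = 0.0051), Fn1 (0.66, adjusted p = 0.0450) and Tnc (0.60, adjusted p = 0.0238) rose as well. Col3a1 and Lum, which rose, are in the stellate cell and fibroblast list too, as are Dcn, Col1a1 and Col1a2, and that list's median was 0.35 (0.15 without siAirn replicate 2). The part of such cells in these increases was not tested. The substrate that fell, named after its value was seen, was Col4a2 of the basement membrane (-0.32, adjusted p = 0.0148). After correcting for GC content and length, 4 of the 22 were called, again above the share over all genes (7.85%). Ltbp1 (0.75), Fn1 (0.53) and Tnc (0.50) were not among them, with the corrected log2 fold change in parentheses.

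**Figure D4:**
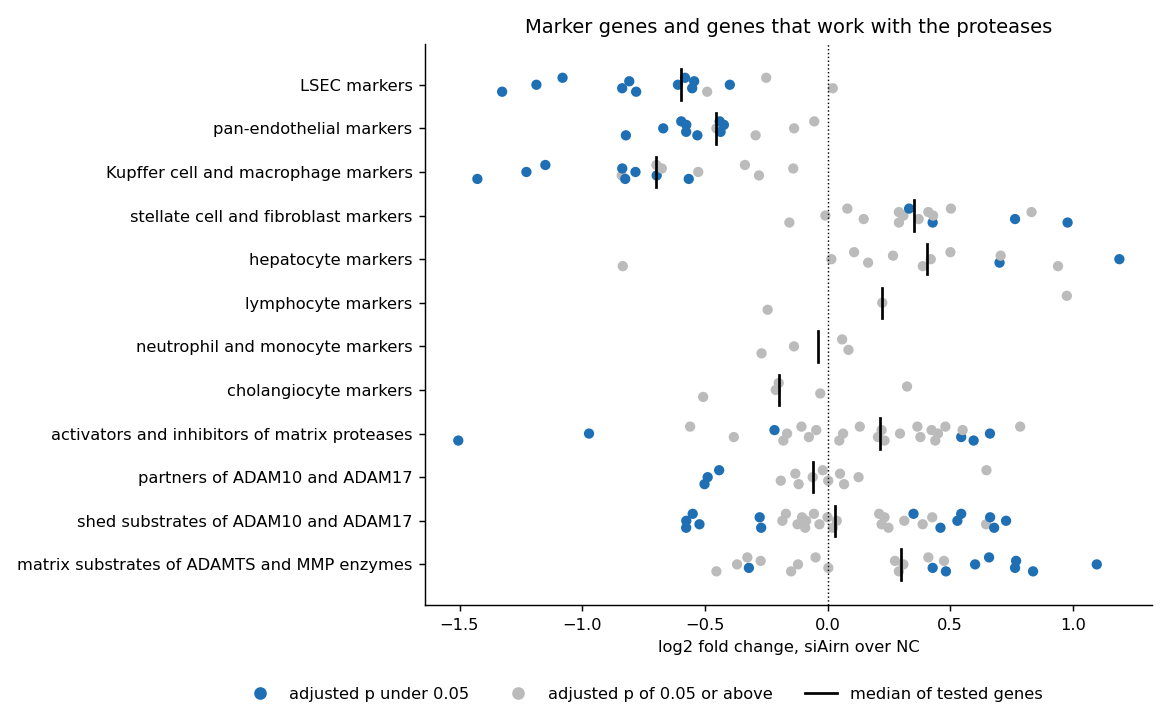
Log2 fold change of siAirn over NC for each tested gene of the 8 marker lists and the 4 lists of genes that work with the proteases, in blue where the adjusted p was under 0.05, with a bar at each list's median. LSEC, pan-endothelial and macrophage markers lie mostly to the left, with medians of -0.60, -0.45 and -0.70. Stellate cell and fibroblast markers, hepatocyte markers and matrix substrates lie mostly to the right, with medians of 0.35, 0.40 and 0.30.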

How the data were processed

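The 4 RNA-seq libraries of primary LSECs, 2 NC and 2 siAirn, were grouped by their labels. The members and gene lists were chosen with earlier results of these data known. The submitters' processing notes name BWA, Bowtie2 and RSEM, and the build hg19, a human build, although organism and gene identifiers are of mouse. The annotation and the use of strand are not given in the sources used here. The authors deposited expected counts, not normalized, and a second value per library that the header does not name, read as the authors' FPKM. Group means they deposited were not used.

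Counts were rounded and fitted in R 4.3.3 with edgeR 4.0.16 (TMM, filterByExpr, glmQLFit, glmQLFTest, no covariate). Benjamini-Hochberg adjustment covered 13628 genes. CPM are TMM-scaled, and 3 counts are 0.166 to 0.175 CPM. Standard errors are those implied by the F statistic. A 2 against 2 permutation test cannot go below p = 0.333 and was not used. Alternatives were DESeq2 1.42.0, upper-quartile scaling, other filters (1 count in any library, or 10 in every library), limma 3.58.1 on log2(FPKM + 1) and log2(FPKM + 0.1), the likelihood-ratio test of edgeR, a replicate block, a GC content and length correction (12948 genes), and leaving out each library. The calculations were tested on simulated data.

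Named genes were all called, all past the threshold of the methods, the 10 highest by FPKM, members with known roles in liver matrix turnover or shedding, up to 6 called genes of each related list and the 2 most abundant of each marker list. Others are named to give a range, or as substrates. Windows of 50 bases, exon overlaps, GC content and length came from GENCODE M21, and promoters from RefSeq (GRCm38.p6).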

Additional observations from a re-analysis of the deposited data

How the results depend on the processing

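Of the 14 called genes, Adam10, Adam15, Adam19, Adamts12, Adamts7, Mmp14 and Mmp2 were called under each of the 10 alternatives that keep all 4 libraries, and none of the 14 changed direction under any alternative. The number called was 9 with limma at both pseudocounts (14.9% and 15.0% of all genes) and 22 with the replicate block and GC correction together (32.2% of all genes). The replicate block alone called 21 of the 45 and 35.5% of all genes, but the numbers are not stated to mark a shared animal or batch (correlation of same-numbered deviations 0.221). By the methods' threshold, limma on log2(FPKM + 1) passed 6 (6.71% of all genes). Mmp calls were 5 with the replicate block and 7 with block and GC correction. Adamts calls were 3 without a filter (11.4% of all genes), 8 with the likelihood-ratio test (23% of all genes), 3 with limma at both pseudocounts, 9 with the replicate block and 2 with the GC correction. Timp calls were 1 with DESeq2 (13.2% of all genes), with the likelihood-ratio test and with the replicate block, and 2 with block and GC correction. Calls over the 92 tested genes of the 4 related lists were 51 with the replicate block, 14 with the GC correction (7.85% of all genes) and 49 with both.

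Leaving out a library leaves 1 in its group, which is then assumed to vary like the other group. Without NC replicate 1, 35 of all 13628 genes and 1 of the 45 were called. Without NC replicate 2 the quasi-likelihood test called 0 genes, with 3075 genes and 18 of the 45 at an unadjusted p under 0.05, and no other tool was run on 3 libraries. Without siAirn replicate 1 or 2, 17 and 10 of the 45 were called, and 17.1% and 10.2% of all genes. Over these fits the count of members ran from 0 to 17, of Mmp genes from 0 to 5, of Adam genes from 0 to 5, of Adamts genes from 0 to 6, of Timp genes from 0 to 1 and of related genes from 0 to 39. The log2 fold change ran from -0.23 to 3.25 for Adamts13, -0.053 to 0.58 for Mmp13, -0.31 to 0.53 for Mmp3, -0.17 to 0.26 for Timp1, -0.26 to 0.13 for Timp2, -0.018 to 0.61 for Dcn, -0.10 to 0.13 for Kdr, -0.30 to 0.40 for Ltf, -0.50 to 0.46 for Ly6c2 and -0.11 to 0.26 for Tagln. With all 4 libraries and no covariate, edgeR's quasi-likelihood test called none of these genes. With the replicate block it called Mmp13 (adjusted p = 0.002) and Dcn (adjusted p = 0.000624). With block and GC correction it called Mmp13 (adjusted p = 0.000431), Mmp3 (0.00966), Timp1 (0.00404) and Tagln (9.5e-05). With the GC correction, alone or with the block, Timp2 turned to 0.025 and 0.020 and Kdr to -0.094 and -0.097. The causes were not tested. Depth limits the 25 untested genes, at 18 counts or fewer.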
